A study of Saccharomyces cerevisiae with 6 samples.

Results

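ITS1, internal transcribed spacer 1, is the stretch of the yeast 35S ribosomal DNA gene that lies between the 18S and the 5.8S sequences. Counted from the start site, the 18S sequence ends at position 2500 and the 5.8S sequence begins at 2862, and every position between them was taken. That gave 360 positions with a read in at least 1 library and 1 position with none, of the 6858 positions of the gene. In the R64 genome annotation the spacer is ITS1-2, on the minus strand at chrXII:464709-465069, directly next to RDN18-2 at chrXII:465070-466869 and RDN58-2 at chrXII:464551-464708, and an identical-length copy, ITS1-1, lies at chrXII:455572-455932. NET-Seq (native elongating transcript sequencing) was performed in *Saccharomyces cerevisiae*. RNA that copurified with RNA polymerase I (Pol I) was sequenced from its 3′ end, so each read marks the last nucleotide of 1 RNA. The comparison was between WT and *rpa190-F1205H* yeast, with 3 cultures and 3 libraries of each, all grown at 30 °C to an OD600 of 0.3. In *rpa190-F1205H* a phenylalanine in the trigger loop of the largest Pol I subunit, Rpa190, is replaced by histidine. Per the methods, that allele was carried on the plasmid pRS315 in *rpa190Δ*::*HIS3* haploids, the second-largest subunit, Rpa135, bore a C-terminal hemagglutinin tag for the immunoprecipitation, and WT was the parent strain. The question put to ITS1 here was whether Pol I lay at other nucleotides of the spacer in the mutant.

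The trigger loop is a mobile part of the active site that closes over the incoming nucleotide and helps to add it to the RNA. ITS1 RNA is in no mature ribosome. It is removed by a series of cuts, the best known of which is made at site A2, near a conserved ACAC sequence, and parts the precursor of the small subunit rRNA from that of the large subunit rRNAs. A further cut at A3, by the ribonuclease MRP, lies downstream of A2. Any RNA 3′ end that copurifies with Pol I gives a read, so a count at a position can hold nascent ends, ends made by processing, or both. The share of each was not tested.

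The sequences on which the results below turn are RNA sequences, 5′ to 3′, as the base column of the deposited values gives them. The first 3 are the WT peaks, with 15 bases before the mapped base (the capital) and 5 after it.
position 2571: cuuuuacugggcaagAagaca
position 2617: gcgcuuaagugcgcgGucuug
position 2659: uugcuauuccaaacgGugaga
The next shows 30 bases at chrXII:464843-464872, where neighbouring positions fell, with the 5 positions 2708 to 2712 in capitals.
positions 2698 to 2727: ccguuucaauACAACacacuguggaguuuu
The next shows 45 bases at chrXII:464941-464985, with 4 C positions that rose, 2594, 2599, 2619, and 2623, in capitals.
positions 2585 to 2629: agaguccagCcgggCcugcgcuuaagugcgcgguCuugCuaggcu
The next 3 each have GAGAG directly before the capital.
position 2556: gcaagagcaugagagCuuuua
position 2589: acaagagauggagagUccagc
position 2666: uccaaacggugagagAuuucu
The last is the 5′ border at chrXII:465051-465080, with 3 positions without a read in capitals.
positions 2490 to 2519: aaggaucauUAAagaaauuuaauaauuuug

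The depth of the libraries was unequal in the spacer. Over the whole 35S gene WT libraries held 2028349 to 3087916 reads and mutant libraries 3155425 to 3687549. Within ITS1 the 3 WT libraries held 15193, 12947, and 19382 reads, and the 3 mutant libraries 63910, 60586, and 72190. The median ITS1 position therefore had 19 to 29 reads in WT and 85 to 96 in the mutant, so low WT positions carry the larger counting error. Levels below are normalized reads, in RPM, where the authors set each library to 1000000 reads over the gene short of its 3′ end. Libraries are given in the order of their replicate numbers, WT first.

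ITS1 took up a larger part of the Pol I reads in *rpa190-F1205H* than in WT. The mean level per position was 14.9, 17.7, and 17.4 RPM in WT and 55.7, 53.2, and 54.3 RPM in the mutant. The groups did not overlap, and the mutant mean was 3.26-fold the WT mean (p = 0.1 by a two-sided exact permutation test, which cannot go lower with 3 libraries against 3). The median position was at 8.98 ± 0.70 RPM (SD, n = 3) in WT and 26.9 ± 0.81 RPM in the mutant, 3.00-fold higher. This scaling divides by the reads of the whole gene, most of which map to mature rRNA sequence, so the level depends on how much of that is present. Within the reads of the 4 spacers alone, ITS1 held 14.5% ± 0.49 in WT and 16.1% ± 0.37 in the mutant, again with no overlap (exact p = 0.1).

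How ITS1 stood to the other spacers depended on whether the mean or the median position was taken. ETS1 is the external spacer at the 5′ end of the gene, and ITS2 lies between 5.8S and 25S. The log2 ratio of the mean levels of ITS1 and ETS1 was -1.06 ± 0.10 in WT and -1.08 ± 0.04 in the mutant, with overlap between the strains (exact p = 0.8, difference -0.02). That difference ran from -0.06 to 0.03 when each library was left out in turn, and was above 0 only without WT replicate 3. The log2 ratio of their medians was -0.45 ± 0.07 in WT and -1.20 ± 0.01 in the mutant, with no overlap (exact p = 0.1). Against ITS2 the log2 ratio of means was -1.03 ± 0.05 in WT and -0.48 ± 0.04 in the mutant, but it differed by -0.05 once the 10 positions at each end of both regions were left out. The log2 ratio of medians, ITS1 to ITS2, was -0.40 ± 0.01 in WT and -0.68 ± 0.02 in the mutant, which is the opposite direction.

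Position by position, most of ITS1 was higher in *rpa190-F1205H* at the deposited scaling. Of 360 positions tested, 304 were higher (84.4%), 14 were lower (3.89%), and 42 did not pass (limma on log2(RPM + 1), Benjamini-Hochberg adjusted p below 0.05 over all positions of the gene). Over the 6843 tested positions of the gene 40.6% were higher and 33.9% lower. The median log2 fold change was 1.54 in ITS1 and 0.05 over all positions. When each library was instead scaled to the same total over the 4 spacers, 137 ITS1 positions were higher and 119 lower, so the split between directions follows the scaling.

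To ask where within ITS1 the reads lay, each library was set to the same ITS1 total and the fit was repeated. On this scale 128 of 360 positions were higher in the mutant (35.6%), 136 were lower (37.8%), and 96 did not pass. Over the whole gene, scaled in that way, 10.2% of positions were higher and 80.4% lower. The log2 fold changes in ITS1 ran from -3.24 to 3.59, with a median of -0.06. The 3 mutant libraries lay entirely above the WT libraries at 118 positions (32.8%) and entirely below at 124 (34.4%), against 9.72% and 80.2% of the gene. The gene shares follow this rescaling, which put the median log2 fold change over all positions of the gene at -1.63.

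**Figure D1:**
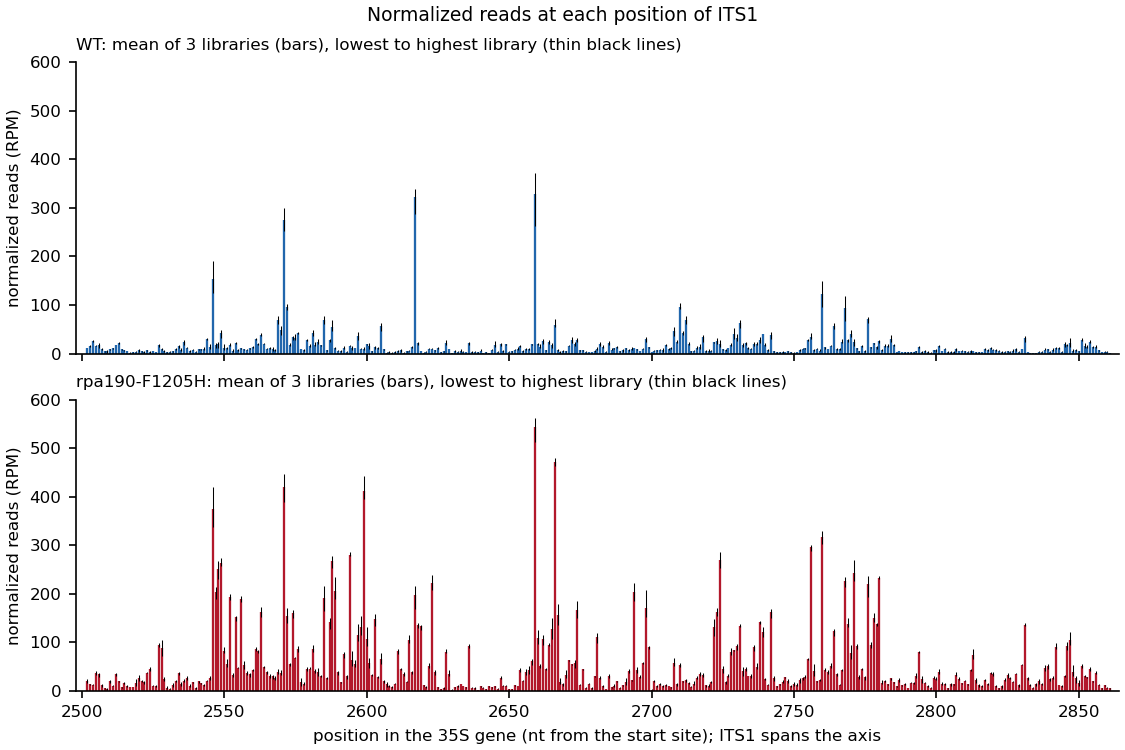
Normalized reads (RPM) at each position of ITS1, plotted against the position in the 35S gene, in WT (upper panel) and *rpa190-F1205H* (lower panel), on the same vertical scale. Bars are means of 3 libraries and thin black lines run from the lowest to the highest library. The tallest WT peaks are at 2659, 2617, and 2571, and the tallest mutant peaks, at 2659, 2666, 2571, 2599, and 2546, all stand above the tallest of WT.

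The profile was reproducible within each strain and differed between them. Over all positions of the spacer the Spearman coefficient was 0.913 to 0.932 between WT libraries, 0.977 to 0.983 between mutant libraries, and 0.664 to 0.704 between a WT and a mutant library. Positions share a library and overlap in their reads' sequence, so these coefficients describe the profiles and carry no test. Of the 36 highest positions, WT libraries shared 31 to 32, mutant libraries 32 to 34, and a WT and a mutant library 15 to 17. The mutant profile was not the WT profile moved along by a nucleotide. The coefficient between the strain medians was 0.701 in register. It was 0.406 when each WT position was set against the mutant position 1 downstream of it, and 0.361 against that 1 upstream.

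In WT, a large part of the ITS1 reads lay at 3 single nucleotides. Positions 2571, 2617, and 2659 together held 14.9%, 15.4%, and 15.7% of the ITS1 reads in WT, against 5.32%, 6.22%, and 6.21% in *rpa190-F1205H*. The 3 were named for their height in WT, so these shares are a description. Position 2659, a G, was the highest in both strains. It was at 263, 373, and 348 RPM in WT and at 512, 554, and 563 RPM in the mutant, so every mutant library was higher at the deposited scaling (log2 fold change 0.74 ± 0.14 SE, limma adjusted p = 0.0011) although its share of ITS1 was lower (log2 fold change -0.96 ± 0.13 SE at equal ITS1 total, adjusted p = 1.2e-05). Position 2571, an A within gggcaagA, showed the same pair of directions, at 253, 273, and 301 RPM in WT and 390, 426, and 446 RPM in the mutant.

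Position 2617 differed from both. This G, in the run gugcgcgG, was second highest in WT, at 287, 339, and 339 RPM, and fell to 168, 215, and 207 RPM in the mutant, where it ranked 19. The strains did not overlap, and the fall held on either scale (log2 fold change -0.71 ± 0.13 SE at the deposited scaling, adjusted p = 0.00086, and -2.41 ± 0.14 SE at equal ITS1 total, adjusted p = 5.1e-09). Only 2 nucleotides downstream, the C at 2619 was among the low positions of WT, at 5.32, 4.93, and 4.21 RPM, which is 10 to 15 reads, and stood at 136, 125, and 136 RPM in the mutant. The log2 ratio of 2619 to 2617 was -6.06 ± 0.29 in WT and -0.56 ± 0.25 in the mutant. The U between them was not among the positions named by rule.

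Of the 8 highest positions of each strain, 4 were in both lists: 2546, 2571, 2659, and 2760. The A at 2546 was at 124, 190, and 147 RPM in WT and at 337, 365, and 419 RPM in the mutant. The A at 2760 was at 95.8, 149, and 125 RPM in WT and 302, 318, and 330 RPM in the mutant. At equal ITS1 total both differed little, with log2 fold changes of -0.41 ± 0.15 SE and -0.33 ± 0.14 SE (limma fit across all positions, adjusted p = 0.020 and adjusted p = 0.043). The other high WT positions were 2572, 2768, and 2710. The A at 2572 ranged from 89.4 to 102 RPM in WT and from 140 to 170 RPM in the mutant, and the G at 2768 from 66.7 to 118 RPM and from 214 to 234 RPM. Both were higher at the deposited scaling and had a lower share of ITS1 in the mutant, whereas 2710 fell on both scales.

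The 4 positions that were among the highest 8 only in the mutant list were 2594, 2599, 2666, and 2756. The C at 2599, in gccgggCcug, had the largest rise of ITS1. It was at 8.16, 9.37, and 13.0 RPM in WT, or 19 to 40 reads, and at 395, 397, and 442 RPM in the mutant. That is a 40.5-fold difference of the means and a log2 fold change of 5.23 ± 0.15 SE (adjusted p = 4.6e-08), and 3.59 ± 0.15 SE at equal ITS1 total. It moved from rank 170 of the spacer in WT to rank 4. The C at 2594, 5 nucleotides upstream, was at 14.6, 17.8, and 17.2 RPM in WT and 286, 279, and 277 RPM in the mutant. The U at 2756 was at 30.2, 41.4, and 31.7 RPM in WT and 301, 289, and 297 RPM in the mutant. All 4 had a larger share of ITS1 in the mutant as well.

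Position 2666 lay 7 nucleotides downstream of the top peak. It was at 53.9, 70.5, and 54.4 RPM in WT and 480, 462, and 473 RPM in the mutant, where it was the second highest position. The log2 ratio of 2666 to 2659 was -2.45 ± 0.20 in WT and -0.20 ± 0.09 in the mutant, so a position well below the WT peak stood nearly as high as that peak in the mutant. The U at 2667 was at 6.03, 8.88, and 7.45 RPM in WT and 178, 153, and 136 RPM in the mutant (log2 fold change 4.22 ± 0.15 SE, adjusted p = 9.9e-08). Positions 2659, 2666, and 2667 all lie in the target of the oligonucleotide that the study used to detect the 20S and 23S precursors on Northern blots, GCACAGAAATCTCTCACCGT, which matched the gene once, at 2656 to 2675. Those 20 positions together held 10.8% ± 0.67 of the ITS1 reads in WT and 11.5% ± 0.05 in the mutant, with overlap between the strains (exact p = 0.2).

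The 6 largest rises at equal ITS1 total were 2599, 2619, 2623, 2667, 2694, and 2556, and 4 of them end in C. The C at 2623 was at 9.23, 8.38, and 11.01 RPM in WT and 208, 239, and 220 RPM in the mutant. The A at 2694 was at 12.4, 10.8, and 11.7 RPM in WT and 207, 185, and 221 RPM in the mutant. In both the lowest mutant library was above 10 times the highest WT library. These positions and the falls below were picked from 142 eligible positions by the size of their change, so their sizes are those of extremes.

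**Figure D2:**
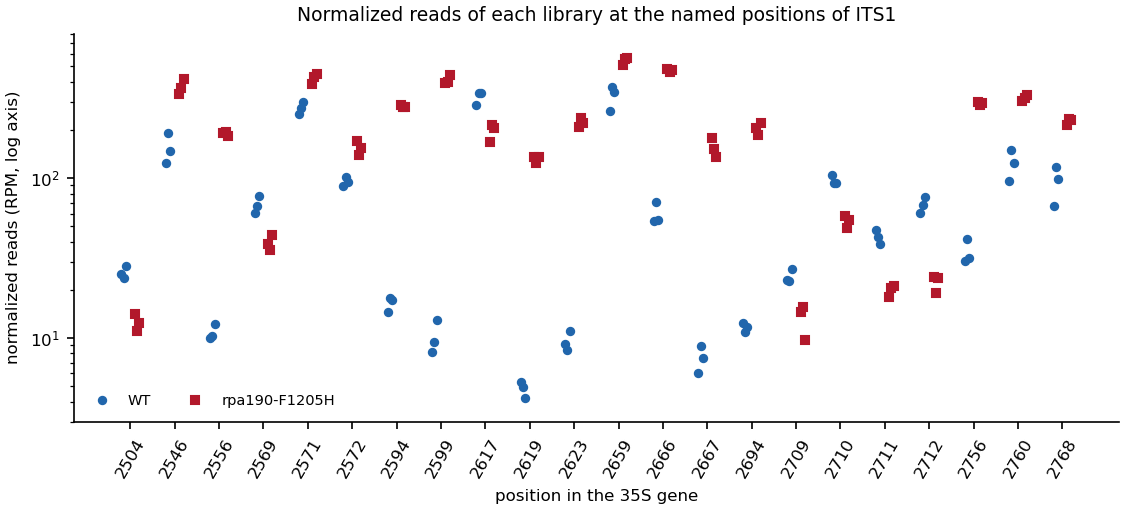
Normalized reads (RPM, log axis) of each library at the positions of ITS1 named for height, rise, or fall, with WT libraries as blue circles and *rpa190-F1205H* libraries as red squares. The strains do not overlap at any of them, and the mutant is lower at 2504, 2569, 2617, and 2709 to 2712.

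Of the 6 largest falls, 4 were neighbours. They were 2709, 2710, 2711, and 2712, in the sequence printed above with ACAAC in capitals, and the other two were 2504 and 2569, both A. The C at 2712 was at 60.7, 68.0, and 76.4 RPM in WT and at 24.2, 19.02, and 23.9 RPM in the mutant. It fell on both scales, by 1.57 ± 0.13 SE on the log2 scale as deposited (adjusted p = 8.6e-06) and by 3.24 ± 0.14 SE at equal ITS1 total. The A at 2710, one of the 8 highest in WT, was at 104, 92.7, and 93.0 RPM in WT and 58.2, 48.5, and 55.1 RPM in the mutant. The other falls, 2569, 2709, and 2711, had lower levels in every mutant library too, and 2569 ranged from 60.3 to 77.7 RPM in WT and from 35.5 to 43.9 RPM in the mutant.

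Over 2708 to 2712, a window set after the values were seen, the share of ITS1 reads was 5.04%, 4.39%, and 4.53% in WT and 0.906%, 0.817%, and 0.827% in the mutant. The mean level there was 55.7 ± 1.2 RPM in WT and 33.4 ± 2.7 RPM in the mutant, in a spacer whose mean level was higher in the mutant. ACAC, the sequence known from site A2, occurred 3 times in ITS1, at 2711 to 2714, 2713 to 2716, and 2785 to 2788, among 13 matches on the RNA strand of the gene. The first 2 overlap each other, and of them the one at 2711 starts within the window and the one at 2713 directly after it. Which of these matches, if any, is the processing site is not annotated in the sources used here. Positions 2783 to 2785, which end at the first base of the third match, held 1.08% ± 0.12 of the ITS1 reads in WT and 0.29% ± 0.02 in the mutant, whereas their mean level overlapped between strains (21.6 ± 2.7 and 18.95 ± 1.1 RPM, exact p = 0.2).

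The 14 positions that fell at the deposited scaling comprised these 4 neighbours and 10 others. Those 10 were 2504, 2544, 2569, 2617, 2625, 2645, 2649, 2683, 2705, and 2707. Of all 14, A was the last base at 9, and A is at 30.5% of ITS1 positions.

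Some changes of the same direction lay next to each other and others stood alone. At equal ITS1 total the 128 higher positions formed 52 stretches and the 136 lower positions 47, counting consecutive positions called the same way. Of these 99 stretches 49 were a single position, 2617 and 2659 among them, and from 2674 to 2679 the direction alternated at every position. Lower stretches of 6 or more positions numbered 4 and held 52 positions, and higher ones numbered 2 and held 18. The longest was 2502 to 2516, directly at the 5′ border, 15 lower positions whose share was 3.48%, 2.59%, and 3.18% in WT and 1.33%, 1.27%, and 1.28% in the mutant. It was followed by 2533 to 2546, with 14 lower positions and 5.13% of the reads in WT against 3.14% in the mutant. At 2546 the direction turned: 2547 to 2558 were 12 higher positions with 3.05% in WT and 7.95% in the mutant. The stretch 2702 to 2714, 13 lower positions, held 6.48%, 5.83%, and 5.76% in WT and 1.38%, 1.25%, and 1.26% in the mutant.

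**Figure D3:**
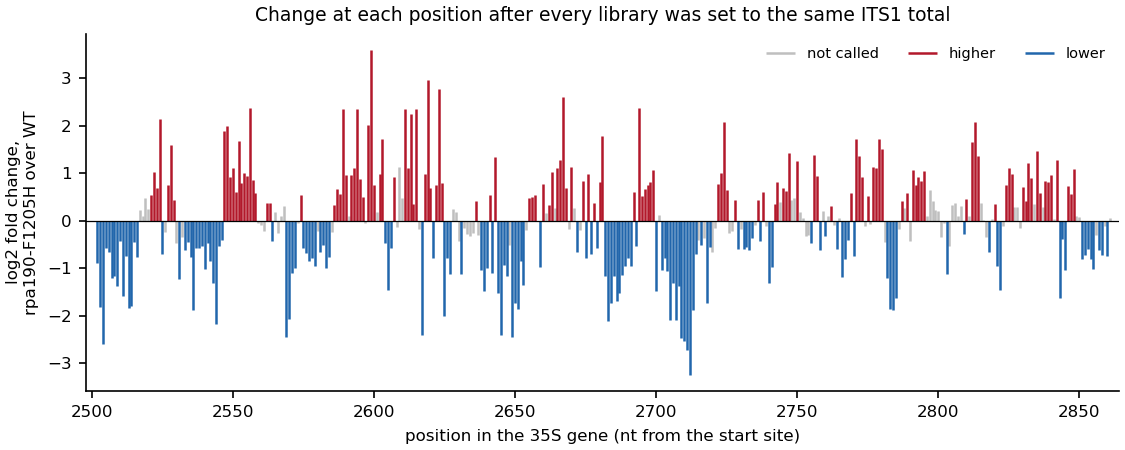
Log2 fold change, *rpa190-F1205H* over WT, at each position of ITS1 after every library was set to the same ITS1 total, plotted against the position in the 35S gene. Red lines are positions called higher, blue lower, and grey not called, and the blue block around 2710 and the red blocks at 2547 to 2558 and near 2600 show neighbouring positions with the same direction, beside others that stand alone.

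Over longer segments the shifts were small. Of 6 consecutive segments, 2681 to 2740 had the largest difference, with 19.1%, 18.3%, and 18.01% of the ITS1 reads in WT and 15.03%, 15.05%, and 15.03% in the mutant. When the 5 positions of the falling window were left out of both the segment and the ITS1 total, it held 14.5% ± 0.34 in WT. In the mutant it then held 14.3% ± 0.05, with overlap between the strains (exact p = 0.4). Segment 2561 to 2620, in which 36 of 60 bases are G or C, held the most reads in both strains, 29.0% ± 0.57 in WT and 26.5% ± 0.34 in the mutant. The AU-rich last segment, the final 61 positions, with 11 G or C, held the least, 8.03% ± 0.49 and 8.89% ± 0.43. No segment overlapped between strains (exact p = 0.1 for each, adjusted p = 0.1 over the 6), and the mean position of the reads was 2663.6 ± 0.60 in WT and 2667.0 ± 0.14 in the mutant. Both this difference and that of segment 2561 to 2620 turned direction when the 10 highest positions were left out, to -0.933 positions and to 0.576 percentage points.

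**Figure D4:**
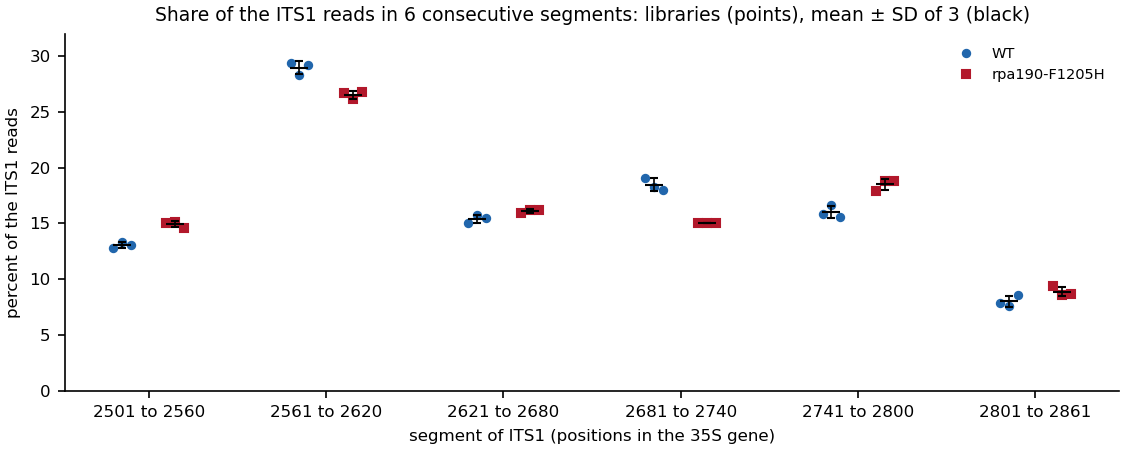
Share of the ITS1 reads (percent) in 6 consecutive segments of ITS1, for each WT library (blue circles) and each *rpa190-F1205H* library (red squares), with the mean ± SD of 3 libraries in black. The 2 segments that hold less in the mutant are 2561 to 2620 and 2681 to 2740, the first of which turned direction without the 10 highest positions.

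Measured over the whole spacer, the reads were about as uneven in the mutant as in WT. The 10 highest positions of a library held 27.2% ± 0.82 of its ITS1 reads in WT and 18.6% ± 0.86 in the mutant, with no overlap. Yet the number of positions needed to hold 50% of the reads, counted from the highest down, was 46, 40, and 45 in WT and 48, 45, and 44 in the mutant (exact p = 0.6). The Gini coefficient, which is 0 for an even profile and nears 1 for a single peak, was 0.573 ± 0.013 in WT and 0.583 ± 0.013 in the mutant, with overlap (exact p = 0.4, difference 0.009, and 0.0038 to 0.017 when each library was left out in turn). ETS1 and ITS2 went another way, from 0.690 ± 0.008 to 0.5997 ± 0.013 and from 0.699 ± 0.011 to 0.538 ± 0.012. The difference between ITS1 and ETS1 was -0.117 ± 0.005 in WT and -0.017 ± 0.003 in the mutant, and that between ITS1 and ITS2 was -0.126 ± 0.019 and 0.045 ± 0.002, neither with overlap (exact p = 0.1 each). The 10 highest positions of ITS2 held 51.8% ± 1.4 of its reads in WT and 26.1% ± 0.93 in the mutant. Those of ETS1 held 22.9% ± 0.91 and 12.1% ± 0.59.

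The base at the mapped end was distributed differently in the strains. C was the last base of 12.2%, 11.3%, and 12.7% of ITS1 reads in WT and of 19.5%, 19.4%, and 19.6% in the mutant, while 15.8% of ITS1 positions are C. C was thus under its share of the sequence in every WT library and over it in every mutant library. U, at 33.5% of positions, was the last base of 17.5% ± 0.24 in WT and 23.2% ± 1.5 in the mutant. A was the last base of 43.1% ± 1.0 and 35.9% ± 0.88, and G of 27.3% ± 1.1 and 21.4% ± 0.74. Positions 2617 and 2659, both G, held 5.34% and 5.42% of the ITS1 reads in WT and 1.00% and 2.77% in the mutant. Their loss covers that of G, and the other G positions together did not lose share. Together A or G ended 70.4% ± 0.82 of WT reads and 57.3% ± 1.5 of mutant reads, against 50.7% of positions. No base overlapped between strains (exact p = 0.1, adjusted p = 0.1 over the 4 bases).

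The next base, the one to be added, moved for A and C. A came next at 27.3% ± 1.0 of WT and 21.8% ± 0.30 of mutant reads, and C at 11.9% ± 0.52 and 17.9% ± 0.40. Neither overlapped between the strains (exact p = 0.1 each, adjusted p = 0.2 over the 4 bases). G and U as the next base overlapped between the strains (25.8% ± 0.85 and 25.4% ± 0.14 for G, 34.96% ± 0.85 and 34.8% ± 0.65 for U).

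The gain in C lay mainly at GC, a G followed by the mapped C. The 18 such positions, 4.99% of ITS1, held 4.67% ± 0.37 of the WT reads and 11.8% ± 0.23 of the mutant reads, the largest gain of the 16 pairs of bases (exact p = 0.1, adjusted p = 0.11). At equal ITS1 total 11 of the 18 were called higher and 4 lower, with a median log2 fold change of 1.17, where all of ITS1 had 35.6% higher and 37.8% lower and the gene 10.2% and 80.4%. The excess did not rest on the tall peaks at 2594 and 2599 alone, since the other GC positions held 4.23% ± 0.34 and 8.32% ± 0.12. Those others still include 2556 and 2623, both among the largest rises. Position 2556 held 0.181% in WT and 0.968% in the mutant, and 2623 held 0.159% and 1.13%. Of the 16 AC positions 5 were higher and 8 lower, with a median of -0.35, a split near that of all of ITS1. GU positions held 3.31% ± 0.19 and 6.86% ± 0.39.

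GG showed the largest loss, from 16.1% ± 0.82 in WT to 9.18% ± 0.63 in the mutant. That loss came from 2617 and 2659, which are both GG positions, as the other GG positions held 5.33% ± 0.36 and 5.41% ± 0.31. AA positions held 11.6% ± 0.54 and 8.10% ± 0.21.

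**Figure D5:**
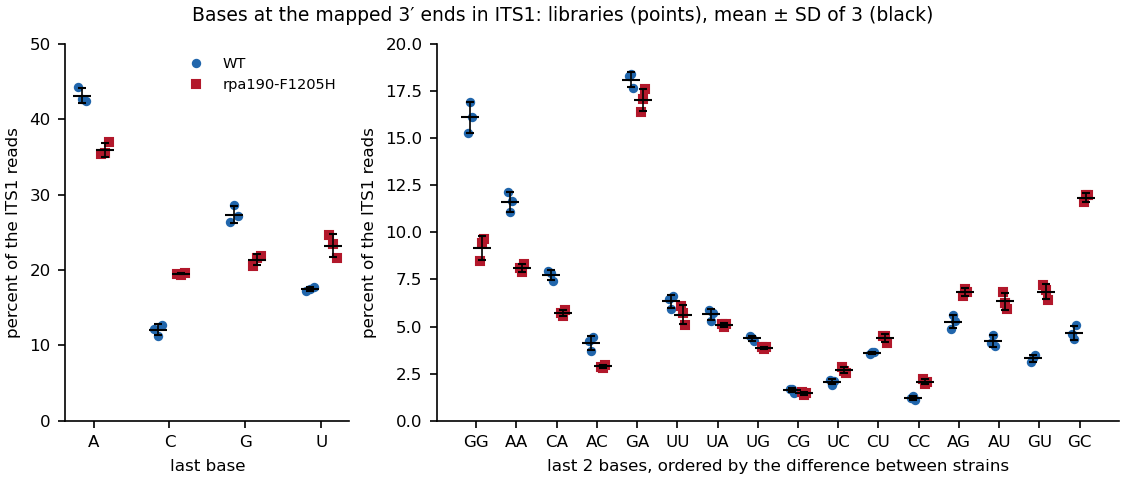
Share of the ITS1 reads (percent) by the base at the mapped 3′ end (left) and by the last 2 bases, the mapped one second (right), for WT libraries (blue circles) and *rpa190-F1205H* libraries (red squares), with the mean ± SD of 3 libraries in black. C and U are higher in the mutant, A and G lower, and GC shows the largest gain. The loss of G lay at 2617 and 2659.

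The shift towards C was shared with ETS1. There C ended 12.5% ± 0.32 of WT and 19.9% ± 0.15 of mutant reads, and the enrichment of C over its share of the sequence, ITS1 minus ETS1, was 0.03 ± 0.07 log2 units in WT and 0.05 ± 0.02 in the mutant (exact p = 0.9). ITS2 went the opposite way, from 24.5% ± 1.1 to 17.2% ± 0.20, and the same difference against ITS2 was -1.01 ± 0.02 and 0.19 ± 0.01 (exact p = 0.1). The ITS2 shares in WT rest largely on few positions, as its 10 highest held 51.8% of its reads in WT and 26.1% in the mutant. Whether the contrast with ITS2 holds beyond those positions was not tested.

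Position 2556, position 2666, and the U at 2589 each follow GAGAG, the sequence printed above, and they are the only 3 such positions of ITS1. The U at 2589 was at 11.7, 10.4, and 13.9 RPM in WT and 234, 191, and 190 RPM in the mutant (log2 fold change 3.99, adjusted p = 7.9e-08). The C at 2556 was at 9.94, 10.4, and 12.3 RPM in WT and 192, 195, and 183 RPM in the mutant. All 3 were called higher on both scales. The sequence was searched on the RNA strand after these positions had been seen, and 2589 was named for it and not by rule. Counting overlapping matches, the gene holds 15 such positions outside ITS1, of which 13 were higher at the deposited scaling and none lower, with a median log2 fold change of 2.78. Over all positions of the gene 40.6% were higher and 33.9% lower, with a median of 0.05. At equal ITS1 total 9 of the 15 were higher and 5 lower, where the gene has 10.2% and 80.4%. The 15 lie in spacers and in mature rRNA sequence. All of those in ETS1 and ITS2 were higher on both scales, and those lower at equal ITS1 total were in 18S, 25S, and ETS2. The gene shares take in mature rRNA positions, so whether GAGAG positions exceed others of their own region was not tested.

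In the last 10 nucleotides, by contrast, the composition moved little. A or G made up 56.6% ± 0.25 of the bases before and at the mapped ends in WT and 58.0% ± 0.14 in the mutant, where an average over ITS1 positions gives 50.5%. G or C made up 43.9% ± 0.53 and 47.2% ± 0.45, where the positions give 36.2%. Both were higher in every mutant library (exact p = 0.1 each). In ETS1 both measures overlapped between the strains, and in ITS2 the share of A or G was 34.8% ± 0.89 in WT and 51.6% ± 0.16 in the mutant. The WT value for ITS2 is weighted towards its 10 highest positions, which held 51.8% of its reads.

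Runs of 4 or more of the same base cover 19.9% of ITS1 positions and held fewer reads than that in both strains, 11.6% ± 0.33 in WT and 13.5% ± 0.42 in the mutant. Runs of U, which make up 13.6% of positions, held 5.95% ± 0.18 and 7.76% ± 0.61. The only such run of G, 4 positions or 1.11% of ITS1, held 3.07% ± 0.42 and 2.47% ± 0.10. It contains the WT peak at 2768, which alone held 1.55% and 1.15%.

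At its borders ITS1 meets mature rRNA sequence. On the 18S side position 2498 was at 3403 to 3977 RPM in WT and 1993 to 2122 RPM in the mutant, and the 3 positions after it, which are the last 2 of 18S and the first of ITS1, were listed at 0 in all 6 libraries. That first position was the only one of the spacer at 0 throughout. Position 2504 was at 25.2, 23.7, and 28.2 RPM in WT and 14.1, 11.1, and 12.5 RPM in the mutant, a fall on both scales (deposited log2 fold change -0.98 ± 0.12 SE, adjusted p = 7.8e-05), whereas 2505 was at 17.4, 16.3, and 15.5 RPM in WT and 31.8, 34.2, and 41.2 RPM in the mutant and rose at the deposited scaling. On the 5.8S side the last position was at 0.986 to 2.13 RPM in WT, which is 2 to 6 reads, and at 4.40 to 6.02 RPM in the mutant. Its share of ITS1 did not pass the test (log2 fold change 0.05 ± 0.22 SE at equal ITS1 total, adjusted p = 0.82), and 2857, 2858, and 2860 had lower shares in the mutant.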

How the data were processed

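The authors removed duplicates by molecular identifier with fqtrim, trimmed with cutadapt, aligned with STAR 2.7.1a to R64, and took coverage of 3′ ends with SAMtools 1.6 and BEDTools (the submitters' processing notes also list bcl2fastq 2.20.00 and R 4.0.2). The rule for sharing reads out among the rDNA copies is not given in the sources used here. The deposited values are RPM, scaled by the authors to 1000000 over positions 1 to 6739, and the deposited p-value and ratio columns were not used. Whole reads were recovered for 99.98% of values, to within 0.02 of a read. Positions were tested with limma 3.58.1 on log2(RPM + 1) (pseudocount 1), strain as the only term, over 6843 positions, at the deposited scaling and at equal ITS1 total. On simulated reads limma recovered 195 of 200 changed positions. These were drawn only from positions with more WT reads and given a single size of change. The figure therefore does not cover the low positions of ITS1, or a gene of which most positions are called, as here. It also does not count false calls. Single values were compared by two-sided exact permutation tests in scipy 1.17.1. Exact (Clopper-Pearson) 95% intervals of base and segment shares reach 0.856 percentage points either side in WT and 0.395 in the mutant, for counting error only. Libraries came from separate cultures, and no pair of libraries of the same strain agreed within sampling noise (chi-square per degree of freedom 1.34 to 2.89). That was taken over the ITS1 positions with enough reads in the pair. The labels and methods, not the values, define the strains, since these data do not measure *RPA190*.

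Positions named are the 8 highest by median in each strain, the 6 largest rises and the 6 largest falls at equal ITS1 total among called positions with a mean of at least 20 RPM and no overlap between strains, 5 at each end, the probe target, and positions at 0. The member positions, lists, and tests were chosen with earlier results of these data known. The windows, stretches, pairs of bases, and GAGAG were chosen after seeing the values. The alternatives tried were a pseudocount of 0.1 or 10, only positions with a mean of at least 10, other scalings, t tests, edgeR 4.0.16, DESeq2 1.42.0, a replicate block, and leaving out each library.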

Additional observations from a re-analysis of the deposited data

How the results depend on the processing

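The count of lower ITS1 positions at the deposited scaling, 14, was 24 when libraries were scaled to the same median over all positions and 9 with the unequal-variance t test after adjustment. With the same total over the spacers 137 were higher and 119 lower. The estimate turned from positive to negative at position 2502 (log2 fold change -0.74), 2505 (-0.43), 2546 (-0.27), 2571 (-0.95), 2572 (-0.86), 2659 (-0.82), 2760 (-0.18), 2768 (-0.26), 2857 (-0.47), 2858 (-0.61), and 2860 (-0.62). Of these, 2546, 2760, and 2768 were not called lower at that scaling (limma adjusted p = 0.092, 0.21, and 0.13). At equal ITS1 total the 136 lower positions became 76 with the unequal-variance t test after adjustment and 86 without it. edgeR called 297 higher and 14 lower as deposited and 113 and 134 at equal ITS1 total, and DESeq2 called 285 and 11, and 101 and 118. Without the 10 highest positions, a setting added after seeing the data, the difference of segment 2561 to 2620 (-2.47 percentage points) became 0.576 and that of the mean position (3.42) became -0.933, so both directions rest on those peaks. The log2 ratio of means of ITS1 to ITS2 differed by -0.051 without 10 positions at each end. G or C in the last nucleotides of ITS2 differed by -0.166 when weighted by log2(RPM + 1), and runs of A by -0.235 with runs of 3 or more. In none of these was the cause tested. With 12 segments in place of 6, 4 were higher and 4 lower without overlap, and 4 overlapped.

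Leaving out each library in turn gave 292 to 306 higher and 11 to 16 lower positions as deposited, and 110 to 134 higher and 127 to 139 lower at equal ITS1 total. With the replicate number as a block, 310 were higher and 17 lower as deposited, and 137 and 146 at equal ITS1 total. The labels give no shared batch, so the numbers were not taken to pair the cultures. Same-numbered libraries of the strains deviated together with correlations of 0.127, 0.027, and 0.201 over all positions. Between differently numbered libraries the correlations ran from -0.158 to 0.030. Whether libraries of the same number share a factor was not tested. Among single named positions and measures that answer no comparison, 33 values lost and 2 gained a call. Depth limits most the low WT positions, at 19 to 29 reads for the median.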
